A study of Mus musculus with 2 samples.

Results

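Cytosolic ribosomal protein genes encode the proteins of the small and the large subunit of the cytoplasmic ribosome. They were chosen by symbol: Rpl or Rps followed by a digit, Rplp0 to Rplp2, and Rpsa, without rows named as pseudogenes and without the Rps6k kinase genes. This gave 85 of the 15745 measured genes, 51 named for the large and 34 for the small subunit. The letters also took in Rps19bp1, which encodes a protein that binds Rps19 and is not part of the ribosome, Rpl6l, which the annotation gives as a processed pseudogene, and Rps27rt, a retrogene copy of Rps27. Paralogs named after a main gene (Rpl7l1, Rpl22l1, Rpl36al, Rpl39l and Rps27l) were members too. The label held for nearly all of them: 80 members at day 3 and 79 at day 5 stood above 1000 CPM (UMI counts per 1000000 UMIs of the group, a UMI being the unique tag of 1 captured transcript).

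The cells came from intestinal organoids, closed epithelial cultures that form crypt-like and villus-like regions, grown from wild-type C57BL/6 mice aged 10 weeks. There was 1 droplet library at day 3 (798 cells, 28764033 UMIs) and 1 at day 5 (1065 cells, 17349076 UMIs), each from the transcripts' 3-prime ends. Throughout, the base medium held R-Spondin, Noggin and EGF. Until day 3 the ROCK inhibitor Y-27632 (10 µM) and conditioned medium with Wnt3a (20%) were added, and until day 1 also CHIR99021 (3 µM), which inhibits GSK3. From day 3 to day 5 all 3 were left out. Day and medium thus cannot be told apart. With 1 library per day there is no test between days, and all intervals cover counting error only. PCR and droplet effects are not in them.

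Most ribosomal proteins are needed in equal numbers, and the family's messenger RNAs are among the most abundant of any growing cell. Most of these messengers begin with a C followed by a run of pyrimidines, the terminal oligopyrimidine tract, through which mTOR signalling sets their translation. In the intestinal epithelium, dividing stem and progenitor cells lie in crypts, and absorptive enterocytes form as cells leave the crypt and stop dividing.

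Windows around the annotated transcription start are shown for 6 members that later stand at the ends of the comparisons. They show pyrimidine runs near that start, which need not be the tract itself. Each holds 5 bases before and 25 bases from the RefSeq start (GRCm38.p6), 5′ to 3′, and capitals mark runs of at least 5 pyrimidines. Rps27 (chr3:90213624-90213653, minus strand), a zinc-finger protein of the small subunit, and Rps27rt (chr9:114982715-114982744, minus strand), its retrogene, have like windows. Rpl38 (chr11:114668575-114668604, plus strand) and Rpl12 (chr2:32961707-32961736, plus strand) are large-subunit proteins. Rps2 (chr17:24720058-24720087, plus strand) is a protein of the small subunit. Rpl22l1 (chr3:28805503-28805532, plus strand) is a paralog of Rpl22.
Rps27: tcgCTCCTTTCCggcggtgacgaCCTCCCT
Rps27rt: ccttgCTTTCCggcggtgacgaCCTCCCTa
Rpl38: tcgTTCTTTCCCCgTTCTCTTCggTTCTCa
Rpl12: gatccgTCTTTTCggCTTTCggctcggagg
Rps2: gatctcgcgCTTCTTggagcactataaatt
Rpl22l1: agcccgTTCTCTTCCCacggctgcagctca

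A run of 7 or more pyrimidines starting with C, read on the transcribed strand within 30 bases on either side of a start, was found for 39 of the 64 members with a RefSeq start window (60.9%), against 29.7% of all 27025 genes in that table. On the opposite strand the shares were 25% and 33.7%. Of the 6 members shown, Rps27, Rps27rt, Rpl38 and Rpl22l1 held such a run, and Rpl12 and Rps2 did not in this window. Rps2, Rpl12 and Rpl22l1, which later stand at the low end, thus differed in this search. The search did not place a run at the messenger's first base. It therefore does not tell members with a terminal tract from members without.

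Cells of each library were clustered with the members left out, so that the members' own counts did not enter the clustering. The 15 rows named as ribosomal protein pseudogenes were not left out. Stem-like and Proliferating-like clusters were taken as crypt cells (250 at day 3, 392 at day 5) and Enterocyte-like clusters as absorptive cells (70 and 358). The summed level of 28 Enterocyte markers was 823 CPM in crypt and 6413 CPM in absorptive cells at day 3, and 3566 and 52251 CPM at day 5. The absorptive classes of the 2 days thus differed by about as much in these markers as the classes within day 3. The day 5 Stem-like cluster rested on 3 of 24 measured stem markers, none of them among its first 10 genes, and day 5 crypt cells held 895 CPM of enteroendocrine markers against 26.2 CPM at day 3. Immune and stromal marker lists were at 3.03 CPM or less in every class. Depth differed: the median cell held 32063.5 UMIs at day 3 (at least 17601) and 13549 at day 5 (at least 6777).

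Ribosomal protein genes took up more than 1 in 3 of all UMIs on both days. They held 36.6% (36.5 to 36.6) of the day 3 UMIs and 39.3% (39.3 to 39.4) of the day 5 UMIs, by exact binomial intervals, a log2 ratio of 0.11. Weighing each cell alike brought it to 0.035, and without Enterocyte-like cells it was 0.22. The median cell stood at 36.9% at day 3 (quartiles 34.2 and 39.0) and at 39.6% at day 5 (31.9 and 43.8). The SD between cells was 5.69 percentage points at day 3 and 9.29 at day 5. The days therefore overlapped widely, and day 5 cells lay both above and below most day 3 cells. The small subunit's part of the family's UMIs was 43.4% and 43.1%.

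Between these classes, crypt cells had the higher share at day 5 and absorptive cells the lower one. In crypt cells the share was 37.3% (37.2 to 37.3) at day 3 and 43.6% (43.5 to 43.6) at day 5, a log2 ratio of 0.23. In absorptive cells it was 36.9% (36.8 to 37.0) and 28.4% (28.4 to 28.5), a log2 ratio of -0.38. Within day 3, the log2 ratio of absorptive over crypt cells was -0.014. This difference changed sign with 3 of the other settings tried, so no direction is given for it. Within day 5, absorptive cells were lower by a log2 ratio of -0.62. That ratio was -0.43 with finer clusters and -0.32 among cells with at least 17601 UMIs, a limit chosen after seeing the data that left 14 absorptive cells.

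**Figure D1:**
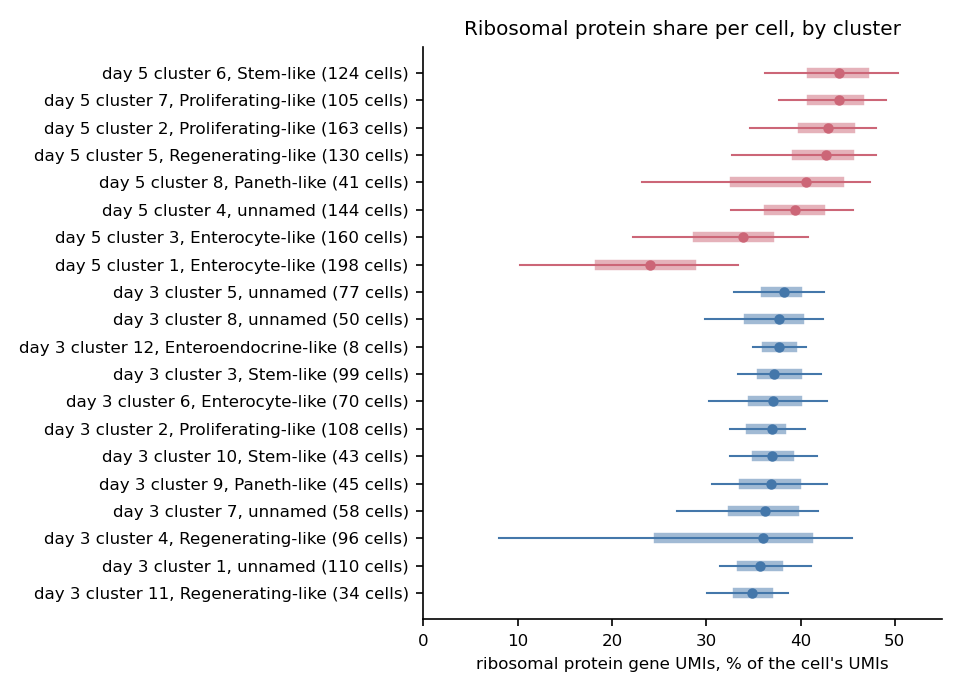
Ribosomal protein genes' share of each cell's UMIs (x axis, percent) in the 12 clusters of day 3 (blue) and the 8 of day 5 (red); points are medians over cells, thick bars run from the lower to the upper quartile and thin lines from the 5th to the 95th percentile. The day 5 Enterocyte-like clusters 1 and 3 lie lowest among the day 5 clusters, and day 3 clusters lie close together.

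Across the 12 day 3 clusters the share ran only from 34.0% to 38.2%. Both Regenerating-like clusters, named from genes of repairing epithelium such as Msln, Ly6a and Anxa1, had the lowest pooled shares, 34.0% and 34.7%. In the first of them the median cell stood at 36.0%, above an unnamed cluster at 35.8%, with an SD of 12.3 percentage points between cells. Low shares in this first cluster went with a high mitochondrial share, as given below for cells under 20%. The second cluster held 3.23% mitochondrial UMIs, and its lowest cell stood at 28.4%. Across the 8 day 5 clusters it ran from 24.1% to 44.1%. The Enterocyte-like clusters stood at 24.1% and 33.0%, the unnamed cluster at 39.3%, Paneth-like cells at 40.6% and Regenerating-like cells at 42.0%. The Stem-like cluster (44.0%) and the Proliferating-like clusters (43.0% and 44.1%) were the highest and differed little from each other. The pooled share of every day 5 cluster not named Enterocyte-like thus lay above the day 3 range, in crypt clusters and in others.

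Cells were also ranked by their summed Enterocyte markers, without clusters. The same markers named the Enterocyte-like clusters, and their CPM counts ribosomal protein UMIs in its total. This view is therefore not independent of the clusters or of the share. In 5 equal bins of day 5 cells, from few to many markers, the median share was 44.6%, 42.6%, 41.6%, 34.9% and 24.6%. In the same bins of day 3 cells it stayed between 36.6% and 37.0%. From the lowest to the highest day 5 bin, median ribosomal protein UMIs per cell went from 9016 to 2417 and UMIs of all other genes from 11409 to 7391. Ribosomal protein counts thus differed by more than the rest of the cell's counts. Total UMIs and mitochondrial share moved along: the median cell held 20165 UMIs and 4.76% mitochondrial UMIs in the lowest bin, and 9903 UMIs and 9.80% in the highest. Whether depth or mitochondrial RNA had a part in the difference was not tested. Without cells above 15% mitochondrial UMIs, a limit chosen after seeing the data, the day 5 ratio of absorptive over crypt cells was -0.60.

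**Figure D2:**
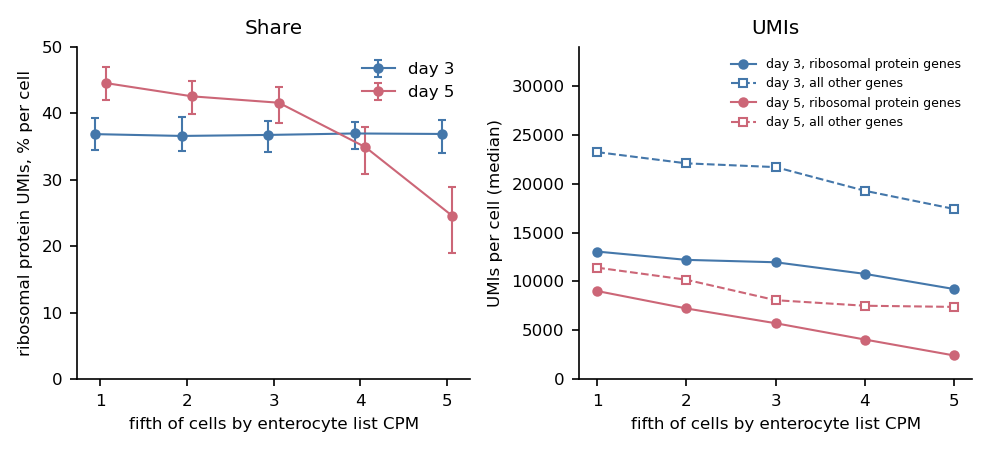
Cells of day 3 (blue) and day 5 (red) in 5 equal bins by the summed CPM of the Enterocyte markers (x axis). Left, median ribosomal protein share per cell in percent with quartiles as bars; right, median UMIs per cell of ribosomal protein genes (filled points) and of all other genes (open squares). The share stays near 36.9% at day 3 and goes from 44.6% to 24.6% at day 5.

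Across the 1065 day 5 cells, the share had a Spearman correlation of -0.77 with the Enterocyte marker level, -0.69 with the mitochondrial share and 0.63 with total UMIs. Across the 798 day 3 cells these were -0.03, -0.05 and 0.24. The cells of a library share its preparation, and the measures share each cell's total, so these are descriptions. Cells with under 20% of ribosomal protein UMIs were rare. At day 3 there were 21, of which 19 were Regenerating-like, and their median mitochondrial share was 21.0% against 4.46% in the other cells. At day 5 there were 67, of which 63 were Enterocyte-like, with a median mitochondrial share of 12.1% against 6.29%. The part of cell quality in these values was not tested.

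Most members kept their place within the family between the days, and a small group did not. A member was counted as higher or lower when its CPM differed at least 1.5-fold and its exact Poisson intervals did not overlap. Of 84 members with at least 10 UMIs, 11 were higher at day 5 (12.3% of all genes tested were) and 5 were lower (31.5% of all genes). The share of members called higher was close to that of all genes, and the share called lower was below it. The members' median log2 ratio was 0.03 with an interquartile range of 0.35, against -0.33 and 1.05 for all 12782 genes. On the authors' log2 scale, averaged over cells, the members' median difference was -0.10, with 55 of 85 below 0, and that of all genes was -0.03, so the direction of the family's median depends on the scale. Trimmed-mean (TMM) scaling moved all log2 ratios up by 0.31, after which 17 members were higher and 1 lower. To be free of such scaling, each member was also measured as its part of the family's own UMIs. On that scale 71 of 84 members lay within the rule's bounds, 8 were higher (10.8% of all genes against the same total) and 5 lower (36.7%).

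**Figure D3:**
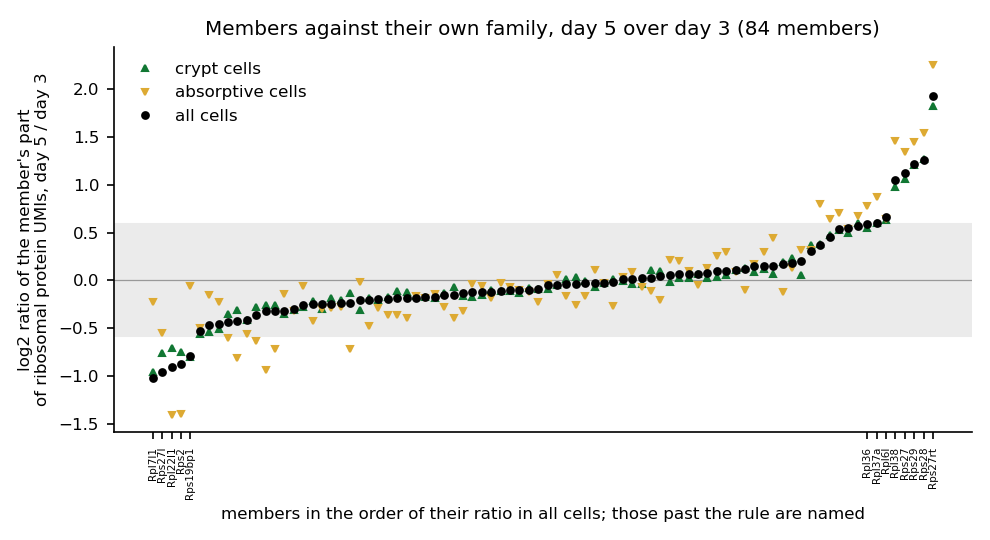
Log2 ratio, day 5 over day 3, of each member's part of the family's UMIs (y axis), for 84 members in the order of their value in all cells (x axis); black points are all cells, green triangles crypt cells and yellow triangles absorptive cells, the grey band marks differences under 1.5-fold, and the members past the rule are named. Rps27rt, Rps28, Rps29, Rps27 and Rpl38 lie far above the band in all 3 groups of cells.

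The members highest at day 5 were short ones of both subunits. Rps28 (ENSMUSG00000067288, chr17:33819027-33824562), a small protein near the messenger RNA exit, measured 2226 CPM (interval 2209 to 2244) at day 3 but 5745 CPM (interval 5709 to 5781) at day 5, and its log2 ratio was 1.37 (1.35 to 1.38). It was at 2161 and 6111 CPM in crypt cells and at 2051 and 4590 CPM in absorptive cells, so both classes had it higher at day 5. Rps29 (ENSMUSG00000034892, chr12:69157722-69159186), a zinc-binding protein of the small subunit's head, was at 3289 and 8232 CPM, a log2 ratio of 1.32 (1.31 to 1.34). Rps27 (ENSMUSG00000090733, chr3:90212522-90213651), whose start window is printed above, was at 3281 and 7683 CPM, a log2 ratio of 1.23 (1.22 to 1.24). Rpl38 (ENSMUSG00000057322, chr11:114668524-114672331), a large-subunit protein known for its part in translating Hox messengers, was at 1942 and 4320 CPM, a log2 ratio of 1.15 (1.14 to 1.17). In all 12 day 3 clusters Rpl38 lay between 1767 and 2325 CPM, and in all 8 day 5 clusters between 3504 and 4671 CPM. The clusters of the 2 days thus did not overlap for it. The same held for Rps27 (2721 to 4007 and 5935 to 8837 CPM) and Rps28 (1840 to 2703 and 4090 to 6952 CPM). Rps29 lay apart as well (2748 to 3689 and 6151 to 9469 CPM). Other members also lay apart, some upward, such as Rpl37a (4149 to 5720 and 5871 to 9397 CPM). Some lay apart downward, such as Rps2 (7428 to 9620 at day 3 and 1973 to 6793 CPM at day 5). How many of all genes did so was not counted. The clusters of a day come from 1 library and are not repeats of that day.

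Rps27rt (ENSMUSG00000050621, chr9:114982366-114982739), a retrogene annotated as protein-coding, had the largest ratio: 172 CPM (interval 168 to 177) at day 3 but 706 CPM (interval 693 to 719) at day 5, or 2.03 (1.99 to 2.08) on the log2 scale. Its transcript is nearly a copy of Rps27. Of the 50-base words in the last 300 bases of the Rps27 transcript, 100% also occurred in Rps27rt, and 88.4% of those of Rps27rt occurred in Rps27. Its counts may therefore hold Rps27 reads that differ by an error, and Rps27rt and Rps27 are uncertain as separate values. Rps27rt was 4.99% of the UMIs of the 2 genes at day 3 and 8.41% at day 5. Of the other members called higher, Rpl6l has the same limit, since all of its words occur in Rpl6. Rpl37a (0.71), Rpl36 (0.69), Rpl35 (0.68), Rps26 (0.65) and Rpl39 (0.64) complete the 11.

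Calls did not rise steadily with the part of the end shared. In all, 53 of the 85 members shared over 50% of their end words with another gene, and 18 shared none. Higher at day 5 were 8 of the 53 and 3 of the 14 that shared 50% or less. Of the 17 tested members without shared words 0 were higher, against 12.3% of all genes. The median log2 ratio was 0.07 for the 53 and -0.08 for the 17. Of 15 rows named as ribosomal protein pseudogenes, 12 were higher at day 5 and 0 lower, against 12.3% and 31.5% of all genes. Whether reads of such copies had a part in the calls was not tested. Rps29 shared 48.6% of its words, Rpl37a 4.38% and Rpl37 none, and their ratios were 1.32, 0.71 and 0.56.

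Coding length went with the ratio. The 11 tested members with a coding length under 300 bases had a median log2 ratio of 0.71, and 10 of them were above 0. The 30 members from 300 to 450 bases had a median of 0.03, the 19 from 450 to 600 bases 0.01, and the 23 of 600 bases or more -0.09. The short members were Rps27rt (2.03), Rps28 (1.37), Rps29 (1.32), Rps27 (1.23), Rpl38 (1.15), Rpl37a (0.71), Rpl39 (0.64), Rpl37 (0.56), Rpl41 (0.48), Rps21 (0.42) and, as the exception, Rps27l (-0.86). Across the 83 members with a coding length, Pearson's r of the ratio with log2 length was -0.53. It was -0.55 in crypt and -0.65 in absorptive cells, whereas within day 3, for absorptive over crypt cells, it was 0.05. Among 435 other genes with a mean of at least 200 CPM, r was -0.02, and the 64 with under 300 coding bases had a median of -0.08.

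By the length of the whole spliced transcript, the order among other genes was more like that of the members. Members under 500 bases had a median log2 ratio of 0.25 (19 genes), and so did other genes under 500 bases (0.26, 36 genes). From 1000 bases upward the medians were -0.10 for 18 members and -0.32 for 278 other genes. Genes of a library share its preparation and are not independent, so these values are descriptions without a test. Library preparation and day cannot be told apart here.

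**Figure D4:**
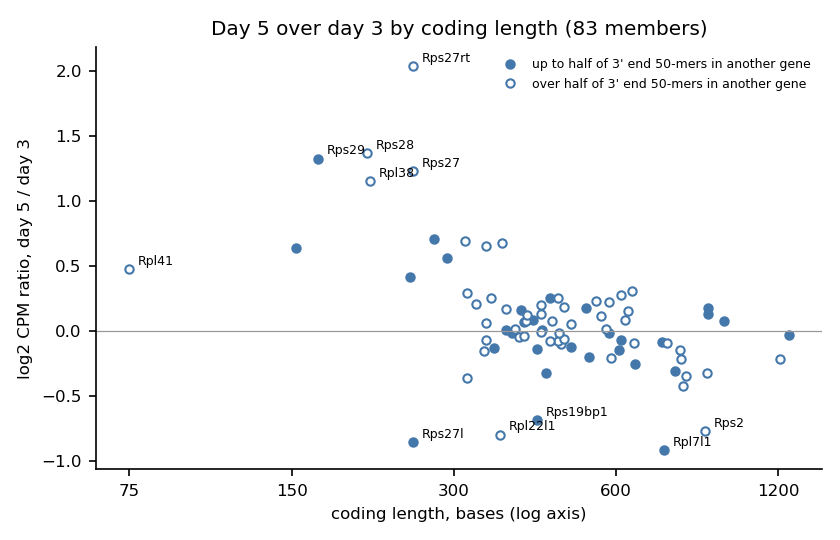
Log2 CPM ratio of day 5 over day 3 (y axis) against coding length in bases (x axis, log scale) for 83 members; filled points share up to 50% of their 3-prime end 50-base words with another gene and open points more. The members under 300 bases lie above 0 except Rps27l, with a median of 0.71.

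Paralogs stood out at the lower end. Rps27l (ENSMUSG00000036781), a p53-responsive paralog of Rps27, was at 1295 CPM at day 3 and 716 CPM at day 5, a log2 ratio of -0.86. Because Rps27 went the other way, Rps27l made up 28.3% of the UMIs of the pair at day 3 and 8.52% at day 5. In crypt cells its part was 28.7% and 10.3%, and in absorptive cells 21.2% and 6.76%. The paralog's part was lower at day 5 in both classes, with intervals far apart that cover counting error only. Of the end words of Rps27 100% occur in other genes, against 21.9% of those of Rps27l. The split may thus depend on how reads of copies were counted, which was not tested. Rpl22l1 (ENSMUSG00000039221), which can take the place of Rpl22, an RNA-binding protein of the large subunit, was at 2794 and 1608 CPM (-0.80). Rpl22 itself was at 1936 and 1910 CPM (-0.02). Rpl22l1 thus held 59.1% of the pair's UMIs at day 3 and 45.7% at day 5, so the gene with more UMIs changed. In crypt cells Rpl22l1 held 58.1% and 48.9%, close to equal at day 5, and in absorptive cells 62.9% and 39.6%. Of their end words, 63.3% of those of Rpl22l1 and 23.9% of those of Rpl22 occur in other genes. The call of Rpl22l1 was lost with TMM scaling (-0.48) and among deep day 5 cells (-0.55), and that of Rps27l with TMM scaling (-0.54). Rpl36al was at 1390 and 1083 CPM (-0.36) beside Rpl36a at 3050 and 3727 CPM (0.29). Rpl36al did not pass the rule, but its part of the pair was 31.3% and 22.5%. Here 70.1% of the end words of Rpl36al and 100% of those of Rpl36a occur in other genes.

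Rpl7l1, a nucleolar relative of Rpl7, was at 90.5 and 48.0 CPM, a log2 ratio of -0.91 (-1.03 to -0.80). Rps19bp1, the binding partner named above, was at 88.3 and 54.8 CPM (-0.69), a call lost with TMM scaling (-0.38) and among deep day 5 cells (-0.56). Both lay far below the level of true ribosomal proteins on both days. Rpl39l, known mainly from the testis, had 2 UMIs at day 3 and 1 at day 5, so no ratio is given.

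Rps2 was the one common ribosomal protein that was counted as lower. Rps2 (ENSMUSG00000044533, chr17:24718116-24721929), a protein at the small subunit's messenger entry, was the most abundant member at day 3 with 8837 CPM and stood at 5188 CPM at day 5, a log2 ratio of -0.77 (-0.78 to -0.76). It was 2.42% and 1.32% of the family's UMIs. In crypt cells it was at 9276 and 6438 CPM and in absorptive cells at 8947 and 2622 CPM. Its call was lost with TMM scaling (-0.46), without Enterocyte-like cells (-0.57) and among deep day 5 cells (-0.57). Of its end words 79.3% occur in other genes, 51 genes in all. At day 5 the most abundant member was Rpl41, the shortest one, with 10337 CPM after 7435 CPM at day 3.

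Within crypt cells 14 members were higher at day 5 (8.95% of all genes) and 1 was lower (18.6%). Relative to the family 8 were higher (6.27%) and 5 lower (32%). Rps27rt, Rps28, Rps29, Rps27 and Rpl38 were the highest, and Rpl7l1, Rps19bp1, Rps27l, Rps2 and Rpl22l1 the lowest. In absorptive cells 5 members were higher (12.2%) and 29 lower (23.4%). With TMM scaling, tried for this class after seeing the data, which moved these ratios up by 0.34, 12 were higher and 9 lower, and 29 members rather than 14 were above 0. The 5 were Rps27rt, Rps28, Rps29, Rpl38 and Rps27. Relative to the family, 12 were higher (20.7%) and 8 lower (14.3%). Rpl3, Rpsa and Rpl12 joined Rps2 and Rpl22l1 as the lowest. Crypt and absorptive cells of a day come from 1 library, so these comparisons are not independent of each other.

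By role, the acidic stalk that recruits elongation factors had nearly the same level on both days. Rplp0 was at 6785 and 7150 CPM (0.08), Rplp1 at 7726 and 6942 CPM (-0.15) and Rplp2 at 5309 and 5531 CPM (0.06). Rpl5 and Rpl11, which form a particle with ribosomal RNA and can bind Mdm2, stood at 2022 and 2209 CPM (0.13) and at 4242 and 3699 CPM (-0.20). At the mouth of the peptide exit tunnel, Rpl35 and Rpl39 were higher at day 5, and Rpl17 (0.23), Rpl19 (-0.21), Rpl23a (0.25), Rpl26 (-0.01) and Rpl31 (0.17) were not called. Rps27a, which is made as a fusion with ubiquitin, had a ratio of -0.08. Rps6, the classic target of S6 kinase, had -0.09, Rps3 -0.08, Rps19 0.13 and Rpsa, the laminin-binding protein homologue, -0.32. None of these 5 passed the rule. Rps2, grouped by role with Rps6, Rps3, Rps19 and Rpsa, was called lower (-0.77), as given above.

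At day 3, absorptive and crypt cells had nearly the same ribosomal protein levels, member by member. Of 84 members 0 were higher in absorptive cells (12.4% of all genes were) and 2 were lower (18.9%). The members' log2 ratios had an interquartile range of 0.10, against 1.15 for all 10911 genes tested. The 2 were Rpl7l1 (104 CPM in crypt and 46.5 CPM in absorptive cells, log2 ratio -1.16, -1.49 to -0.85) and Rps19bp1 (98.6 and 55.6 CPM, -0.82, -1.13 to -0.54), neither of them a standard ribosomal protein. Against the family's total, Rpl7l1 and Rps19bp1 were lower (18.3% of all genes were) and 0 members were higher (12.9%). Rps19bp1 lost its call with coarser clusters (-0.47). Next stood Rps27l at 1285 and 921 CPM (-0.48), and at the other end Rpl22l1 at 2744 and 3244 CPM (0.24).

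At day 5 the ratio was below 0 for 84 of 84 members, and for 82 with TMM scaling, which put Rpl10 and Rps27rt above 0. By the rule, 52 were lower in absorptive cells (29.9% of all genes were) and 0 higher (20.3%). The median log2 ratio of the members was -0.63, with an interquartile range of 0.33, against -0.25 and 1.73 for all 11154 genes. TMM scaling moved the ratios up by 0.15 and left 30 members lower and 0 higher, and at 2-fold 9 were lower. Since the family's share itself was lower, the members' order matters more than their sign. Against the family's total, 3 members were lower (16% of all genes) and 0 higher (35.8%).

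Those 3 were Rps2, Rpl3 and Rpl12. Rps2 was at 6438 CPM (6384 to 6493) in crypt and 2622 CPM (2572 to 2674) in absorptive cells, a log2 ratio of -1.30 (-1.33 to -1.27). Rpl3 (ENSMUSG00000060036, chr15:80077791-80091868), a large-subunit protein near the peptidyl transferase centre, was at 4197 and 1722 CPM (-1.29). Rpl12 (ENSMUSG00000038900, chr2:32961559-32965345), at the base of the stalk, was at 4356 and 1814 CPM (-1.26), and shares no end words with other genes. None of the 3 was past 2-fold against the family. Against it, Rpl12 lost its call with finer clusters (-0.52) and among deep cells (-0.48), and Rpl3 with finer clusters (-0.56), settings chosen after seeing the data. Rpsa (3993 and 1840 CPM, -1.12) and Rps3a1 (4990 and 2309 CPM, -1.11) came next. In the Enterocyte-like cluster with the lowest family share, Rpl3 was 0.494% of the family's UMIs, against 0.999% in the Stem-like cluster.

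At the other end were Rps27rt (693 and 635 CPM, -0.13), Rpl10 (4934 and 4495 CPM, -0.13), which completes the large subunit late in assembly, Rps14 (7861 and 7040 CPM, -0.16), a protein of the small subunit's platform, Rps27 (7770 and 6692 CPM, -0.22) and Rpl36al (1123 and 929 CPM, -0.27). In these members the classes thus lay closest to each other. All end words of Rpl10 and Rps27 occur in other genes, so their values may hold reads of copies or lack some of their own.

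**Figure D5:**
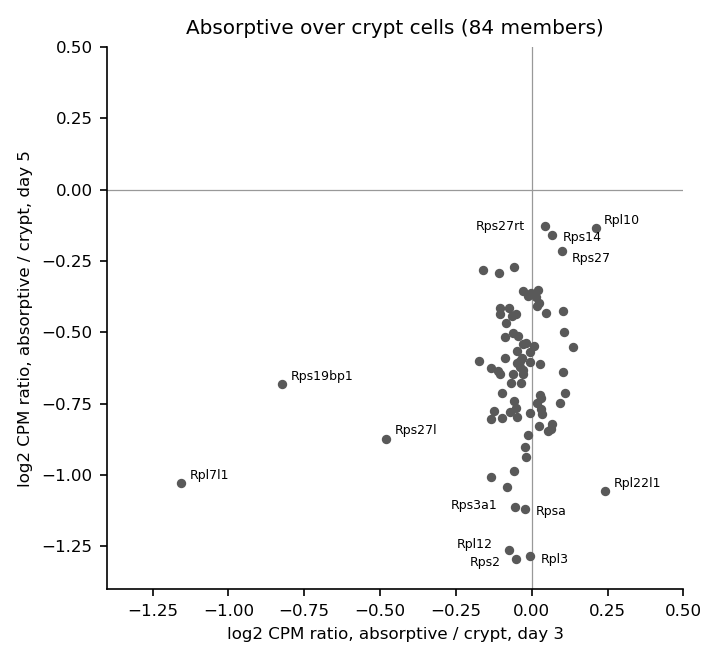
Log2 CPM ratio of absorptive over crypt cells for 84 members at day 3 (x axis) and at day 5 (y axis), with a point per member. Most members lie in a narrow column around 0 on the day 3 axis and all lie below 0 on the day 5 axis (82 of 84 with TMM scaling), where Rps2, Rpl3 and Rpl12 are lowest.

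Length also ordered the members between day 5 classes. The 11 members under 300 coding bases had a median log2 ratio of -0.36, and the 23 of 600 bases or more -0.77. Pearson's r with log2 length was -0.49 over 83 members and 0.15 over 424 other genes.

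Within a library, most members went with the summed other members across all single cells. With each cell thinned to 6000 UMIs, the correlation of a member with the summed others had a median of 0.72 over 80 members at day 3 and 0.82 over 81 at day 5. Rpl32 was highest on both days (0.85 and 0.93), and Rps18 was also high at day 5 (0.92). Rps27l was lowest on both days (0.25 and 0.14), and Rpl36al was low on both (0.31 and 0.34). Both were among the least abundant members tested, at 1295 and 1390 CPM at day 3 and 716 and 1083 CPM at day 5. Rps27rt, at 706 CPM at day 5, was low there too (0.37). The part of low counts in these values was not tested. Rps21 and Rpl5 were low at day 3 only, at 0.28 and 0.36, and at 0.80 and 0.71 at day 5. Their levels of 2317 and 2022 CPM at day 3 were close to that of Rpl22 (1936 CPM), which had 0.63. The 21 day 3 cells with under 20% of ribosomal protein UMIs were not left out. Their part in the day 3 correlations was not tested. All points share a library and each cell's depth, so no test is given.

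Genes linked to the family did not all go with it. Fau, made as a ubiquitin-like fusion with a small-subunit protein, was higher at day 5 (2941 and 5203 CPM, 0.82). It was also higher in absorptive than in crypt cells at day 5 (4395 and 6685 CPM, 0.61). Rack1, a scaffold on the small subunit, was lower in absorptive cells (2501 and 1612 CPM, -0.63).

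Ribosome assembly factors, nucleolar proteins and RNA polymerase I subunits that build the ribosome, were mostly lower. They were so for 29 of 29 at day 5 over day 3 (31.5% of all genes were lower, and the factors' median was -1.24). In absorptive over crypt cells at day 5 they were so for 29 of 29 as well (29.9% of all genes, median -2.56). At day 3, 24 of 29 were lower in absorptive cells (18.9% of all genes, median -1.20), where the ratio of the ribosomal protein share was -0.014. Examples at day 5 are the nucleolar protein gene Ncl (717 and 101 CPM) and Dkc1, the pseudouridine synthase dyskerin (56.2 and 2.56 CPM). Of 18 other genes with terminal oligopyrimidine tracts, 10 were lower and 1 higher in absorptive cells at day 5, where 29.9% of all genes were lower and 20.3% higher, as for the lists that follow. Nap1l1, a histone chaperone, was lowest (-4.34), and Eif4a2, a helicase, highest (0.83). Of 7 elongation factors 5 were lower there, with Eif5a at -1.78, Eef1g at -1.41, Eef1a1 at -0.17 and Eef2 at 0.41. Of 21 initiation factors 16 were lower, and of 78 mitochondrial ribosomal protein genes 53 were lower and 1 higher. Among 10 regulators of these genes, 4 were lower and 1 was higher, with a median log2 ratio of -0.28. Of these regulators, Myc was at 44.1 and 2.05 CPM in crypt and absorptive cells. Larp1, which binds the oligopyrimidine tract, was at 72.4 and 39.2 CPM.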

How the data were processed

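Transcripts of single organoid cells were counted in 1 library at day 3 and 1 at day 5. The authors deposited raw UMI counts per gene and cell, made with Cell Ranger 1.3.0 on mm10 per the submitters' processing notes, and log2 values, which equal the log2 of the scaled count plus 1. Filters on genes and cells were not given in the sources used here. Symbols were matched for 15681 of 15745 genes. Members and lists were chosen with earlier results of these data known.

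UMIs were summed per library or class. A call needed 1.5-fold in CPM, with 0.5 UMI added, exact Poisson 95% intervals that did not overlap and 10 UMIs over both groups. Poisson counts were simulated for day 5 over day 3 on 12782 genes. They hold counting error only, as the rule assumes, so the rate of false calls between libraries cannot be read from them. Of genes set 2-fold higher 80.0% were called, of those set 2-fold lower 74%, and of unchanged genes 0.0874% were called higher. Among genes with at least 100 UMIs, 100% of those set 2-fold higher and 92.3% of those set 2-fold lower were called. Each library was clustered alone (scanpy 1.11.5, Leiden, resolution 1, 2000 variable genes, 30 components, 15 neighbours, members left out). A cluster took the name of a type with 3 or more markers among its 25 leading genes, unless another type had more within the first 10. No doublet caller was run, and cells were not filtered further. Cells carry serial names, not barcodes, so barcodes shared between libraries were not counted. Named members were the 5 highest and 5 lowest per comparison by their part of the family (at least 50 CPM in the higher and 10 UMIs in the lower group), those past the rule on that scale, and members of 6 roles. Likeness was Pearson's r over cells for members of at least 500 CPM. Coding and spliced lengths come from the shortest principal transcript of GENCODE M21, and start windows from RefSeq (GRCm38.p6). TMM factors came from edgeR 4.0.16. Other settings tried were the denominator, cell weights, depth, clustering, the fold and the minimum. Results for a few genes are not reported here.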

Additional observations from a re-analysis of the deposited data

Results flagged for a closer look

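Some ratios pointed one way in one group of cells and the opposite way in another, with counting intervals on either side of 0 and a size of at least 0.2 in both. The family's share for day 5 over day 3 was at a log2 ratio of 0.23 in crypt and -0.38 in absorptive cells. Rps18 was at 0.26 and -0.63 in the same classes. For absorptive over crypt cells, Rpl22l1 was at 0.24 at day 3 and -1.06 at day 5. With 1 library per day the differences between these ratios were not tested. No group had enough samples to look for samples far from the others.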

How the results depend on the processing

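No paired analysis was possible because each day has 1 library. The ratio of the family's share for day 5 over day 3 (0.11) was 0.12 without mitochondrial UMIs, 0.14 without the 50 most abundant other genes, 0.035 with cells weighed alike, 0.22 without Enterocyte-like cells, 0.24 in day 5 cells of at least 17601 UMIs and, in a setting chosen after seeing the data, 0.10 without cells above 15% mitochondrial UMIs. For absorptive over crypt cells at day 3 (-0.014) the first 2 of these settings gave 0.022 and 0.052, coarser clusters 0.011, finer clusters -0.022 and the mitochondrial limit -0.00057. At day 5 (-0.62) the values were -0.55, -0.47, -0.65 with cells weighed alike, -0.61 with coarser and -0.43 with finer clusters, and, both chosen after seeing the data, -0.60 with the mitochondrial limit and -0.32 in deep cells. Clustering both libraries together left 1 absorptive cell at day 3 and 4 crypt cells at day 5, so that setting gave no ratio.

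Calls for day 5 over day 3 (11 higher, 5 lower) became 17 and 1 with TMM factors, and 5 and 0 at 2-fold. The means of the authors' log2 values gave 7 higher, and deep day 5 cells gave 2 lower. Against the family, 2-fold left 5 higher and 1 lower. For absorptive over crypt cells, 2-fold left 1 lower at day 3 by either measure. At day 5 the 52 became 30 with TMM factors and 9 at 2-fold, and against the family 0 at 2-fold. In absorptive cells, day 5 over day 3, 5 higher and 29 lower became 12 and 9 with TMM factors. The cause of these shifts was not tested. Of 190 other values of named members, 181 kept their side of the rule and 9 lost their call. No called value changed sign, but 9 uncalled ones did, for Rpl10, Rps14, Rps27 and Rps27rt in absorptive over crypt cells at day 5, reaching at most 0.12. Depth leaves Rpl39l without a ratio.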
